A study of Mus musculus with 93 samples.

Results

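Expression of 10 genes of the Nodal and TGF-beta pathway was measured by RNA-seq in heart field progenitors from mouse embryos and from stem cell spheroids. The genes were taken by name from a list and are the ligands Nodal, Tgfb1, Tgfb2 and Tgfb3, the inhibitors Lefty1 and Lefty2, and the receptors Tgfbr1, Tgfbr2, Acvr2a and Acvr2b. All 10 were among the 24514 gene symbols of the count table. All libraries carried the alleles Hcn4-GFP, Tbx1-Cre and Ai9. GFP+ cells express GFP under Hcn4, a gene of the first heart field, and RFP+ cells descend from cells in which Tbx1-Cre, active in second heart field progenitors, removed the stop cassette of Ai9, so that RFP marks lineage and not present Tbx1 expression. Embryo cells (in vivo) were taken late on embryonic day 7 per the protocol, whereas the sample titles give day 8.5. Spheroid cells (in vitro) came from 1 embryonic stem cell line of the same genotype at day 5.5 of differentiation, after induction with Activin A and Bmp4. Each library was made from 10 sorted cells in 1 well of a plate. There were 5 GFP+ and 4 RFP+ libraries in vivo, and 38 GFP+ and 46 RFP+ libraries in vitro. The in vitro GFP+ library of well C9, with 6288 reads, was left out, which leaves 37. Which embryo or differentiation a well came from is not given in the sources used here. A replicate is therefore a well, and p-values measure the spread between wells, which may be technical.

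Nodal and the Activins bind type II receptors such as Acvr2a and Acvr2b together with type I receptors and, for Nodal, an EGF-CFC co-receptor. The TGF-beta ligands bind Tgfbr2, which recruits the type I receptor Tgfbr1. Both branches phosphorylate Smad2 and Smad3, which enter the nucleus with Smad4. Lefty1 and Lefty2 are secreted inhibitors of Nodal and are themselves induced by it, a feedback loop that limits the range of the signal. In the early embryo, Nodal is needed for mesendoderm formation and left-right asymmetry, and later TGF-beta 2 acts in the formation of the heart valves and outflow tract. Activin A, given to the spheroids, is a ligand of this pathway.

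Reads counted on genes per in vivo library ran from 712732 to 2525460 for GFP+ cells and from 1246546 to 1479957 for RFP+ cells. The in vitro libraries held 828193 to 4371849 (GFP+) and 445071 to 5658882 (RFP+) reads. The in vivo GFP+ libraries detected 6189 to 8302 genes each, fewer than the 10263 to 13052 of in vivo RFP+ libraries. Levels are in CPM, counts scaled to 1000000 per library, with TMM-scaled library sizes, and a count of 3 in a library corresponded to a group mean of 1.85 to 2.53 CPM. Hcn4 was counted in 5 of 5 in vivo and 37 of 37 in vitro GFP+ libraries, and in 1 of 4 in vivo and 18 of 46 in vitro RFP+ libraries. Tbx1 had no reads in vivo in GFP+ cells and was counted in 2 of 37 in vitro GFP+ libraries. Of the RFP+ libraries, 3 of 4 in vivo and 41 of 46 in vitro had Tbx1 reads. The 7 cardiomyocyte markers summed to 15219 to 45294 CPM in vivo in GFP+ libraries but to 4.05 to 855 CPM in vitro, so few cardiomyocyte transcripts were present in the spheroid GFP+ cells. On the plate, columns 1 to 6 held the spheroid RFP+ wells and columns 7 to 11 the spheroid GFP+ wells, so a population effect and a column effect cannot be told apart. The in vivo and in vitro libraries also differ in stage and in column, except that the embryo RFP+ wells G11 and H11 share column 11 with spheroid GFP+ wells. Embryo GFP+ wells were in rows A to E and embryo RFP+ wells in rows F to H. A population effect and a row effect therefore cannot be told apart in vivo. In 7 plate rows the RFP+ wells of columns 3 and 4 had nearly the same profile (r of log2 CPM 0.981 to 0.993, against 0.956 to 0.966 for columns 3 and 5), and whether they hold material of the same cells was not tested. Summing these pairs, which leaves 39 RFP+ libraries, gave log2 fold changes in vitro of -2.23 for Nodal, -1.53 for Tgfb2, 0.27 for Tgfbr1, 0.49 for Tgfbr2 and 0.96 for Acvr2b, and 5 members stayed called.

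Markers of other cell types differed between the embryo groups. The cardiomyocyte sum was 714 to 1660 CPM in RFP+ libraries, below every GFP+ library. The 7 endothelial markers summed to 57.7 to 264 CPM in RFP+ and 0 to 90.0 CPM in GFP+ libraries, where Pecam1, Cdh5, Tie1 and Emcn were at 0. Of these 7, Tek alone had the higher mean in GFP+ libraries (29.3 against 14.6 CPM). The 7 endoderm markers summed to 8.45 to 467 CPM in RFP+ libraries, mostly Cldn6, and 0 to 21.1 CPM in GFP+ libraries, with Sox17 and Foxa1 at 0. Among them, Apoa1 alone had the higher mean in GFP+ libraries (4.45 against 0.711 CPM). Of the RFP+ libraries, F12 alone held embryonic globins, with Hbb-bh1 at 368, Hba-x at 385 and Hbb-y at 383 CPM and 0 in the other 3, and it had the most Pecam1 (17.2 CPM). The endothelial sum was highest in H11 (264 CPM) and was 147 CPM in F12. The part of these cells in the in vivo results was not tested.

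In pools of 10 cells, fewer cells that express a gene and less RNA per cell cannot be told apart.

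The sequences before the start sites of Nodal and Tgfb2 are shown because these ligands were the 2 members higher in GFP+ than in RFP+ cells in vitro. Promoters from RefSeq (GRCm38.p6) were found for 7 of the 10 members, and the 250 bases before the start were searched on both strands for 5 motifs, whose share among 32851 promoters was counted in the same window. The TATA box, searched as TATAAA, was present in 12.4% of them. The E-box, searched as CACGTG, was present in 6.02%. The core Smad site, searched as CAGAC, was present in 42.2%. The Foxh1 site, searched as AATCACA, was present in 3.50%. The GC box, searched as GGGCGG, was present in 32.7%. Capitals mark the matches. The Nodal window is chr10:61417722-61417971 on the plus strand, and that of Tgfb2 is chr1:186705990-186706239 on the minus strand, both written 5′ to 3′ in the direction of transcription.
Nodal: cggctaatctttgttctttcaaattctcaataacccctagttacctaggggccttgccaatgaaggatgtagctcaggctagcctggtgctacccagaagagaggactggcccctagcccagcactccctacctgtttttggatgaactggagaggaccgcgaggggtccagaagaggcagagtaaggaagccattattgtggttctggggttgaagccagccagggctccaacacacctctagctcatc
Tgfb2: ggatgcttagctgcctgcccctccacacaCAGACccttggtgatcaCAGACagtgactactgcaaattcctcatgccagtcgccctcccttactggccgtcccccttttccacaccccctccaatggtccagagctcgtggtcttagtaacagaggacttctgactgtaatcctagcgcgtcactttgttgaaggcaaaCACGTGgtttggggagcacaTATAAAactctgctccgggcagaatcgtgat
The Tgfb2 window held CAGAC at -221 and -204, CACGTG at -51 and TATAAA at -31 from the start. In the Nodal window none of the 5 motifs occurred, which says only that these letters are not in the window. A GC box was found before Tgfb1, Acvr2a, Acvr2b and 1 of the 2 starts of Tgfbr1, but not in the windows of Nodal, Tgfb2 and Tgfbr2. The match for Foxh1, a partner of Smad2 in Nodal signaling, occurred at -34 of the other Tgfbr1 start. CAGAC, on either strand, was found before that start too, and before Tgfbr2, Acvr2a and Acvr2b. These matches describe letters and not binding.

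Nodal, the ligand that patterns the primitive streak and the left side of the embryo, was detected in the spheroid cells and had no reads in the embryo libraries. In mm10 it lies on the plus strand of chromosome 10 (61417972 to 61425338) with 2095 bases of exon. Each of the 9 in vivo libraries had 0 counts, which allows at most 2.53 CPM in GFP+ and 2.22 CPM in RFP+ cells (3 counts per library, counting error only). In vitro, Nodal was counted in 36 of 37 GFP+ wells, from 0 to 35.7 CPM with a median of 14.3. In RFP+ wells it was counted in 32 of 46, from 0 to 13.4 CPM with a median of 2.06. The ranges overlapped, but 20 GFP+ wells lay above the highest RFP+ well and 35 above the RFP+ median. The means were 14.4 ± 8.29 CPM (SD, n = 37) and 3.03 ± 3.62 CPM (SD, n = 46). In the edgeR quasi-likelihood fit over all genes, Nodal was lower in RFP+ cells with a log2 fold change of -2.18 (SE 0.30, Benjamini-Hochberg adjusted p = 2.4e-10). Genes were called at an adjusted p under 0.1, the threshold of the study. Of 9990 genes tested in vitro, 78.0% were called, so a call was the rule and not the exception in that comparison. In each of the 8 plate rows GFP+ wells had the higher mean. By plate column, the GFP+ means ran from 8.50 (column 7) to 22 CPM (column 9) and the RFP+ means from 2.59 to 3.94 CPM, without overlap.

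Pluripotency markers were also higher in GFP+ wells in vitro. The 10 pluripotency genes summed to 102 to 1826 CPM in GFP+ wells (median 273) and to 16.6 to 649 CPM in RFP+ wells (median 41.6), and all 10 had the higher mean in GFP+ wells. The 7 endoderm genes summed to 106 to 427 CPM in GFP+ and 12.1 to 138 CPM in RFP+ wells. That sum was mostly Cldn6 (means of 163 and 56.9 CPM) and Trf (71.7 and 10.6 CPM), whereas Sox17 (1.32 and 2.06 CPM), Foxa1 (1.85 and 4.10 CPM) and Ttr (0.501 and 0.685 CPM) had the higher mean in RFP+ wells. The part of such cells in the Nodal difference was not tested. Within the GFP+ wells, Nodal and the pluripotency sum had a Pearson r of 0.21 (permutation p = 0.226) and a Spearman rho of 0.17 (permutation p = 0.301) over 37 wells, and r was 0.18 without the 2 wells farthest from the median. Within RFP+ wells, with near-identical wells averaged, r was 0.08 (permutation p = 0.616) and rho -0.01 (permutation p = 0.969) over 39 wells. Of 8 such relations (Nodal and Tgfb2 with both sums in both populations), none had an adjusted p below 0.944 for r or 0.969 for rho. These relations hold within a population and cannot decide what part such cells have in the difference between populations. Dppa5a made up much of the pluripotency sum in GFP+ wells, with a mean of 230 CPM where the sum had a mean of 466 CPM. In vivo GFP+ cells, 9 of the 10 pluripotency genes were at 0.

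**Figure D1:**
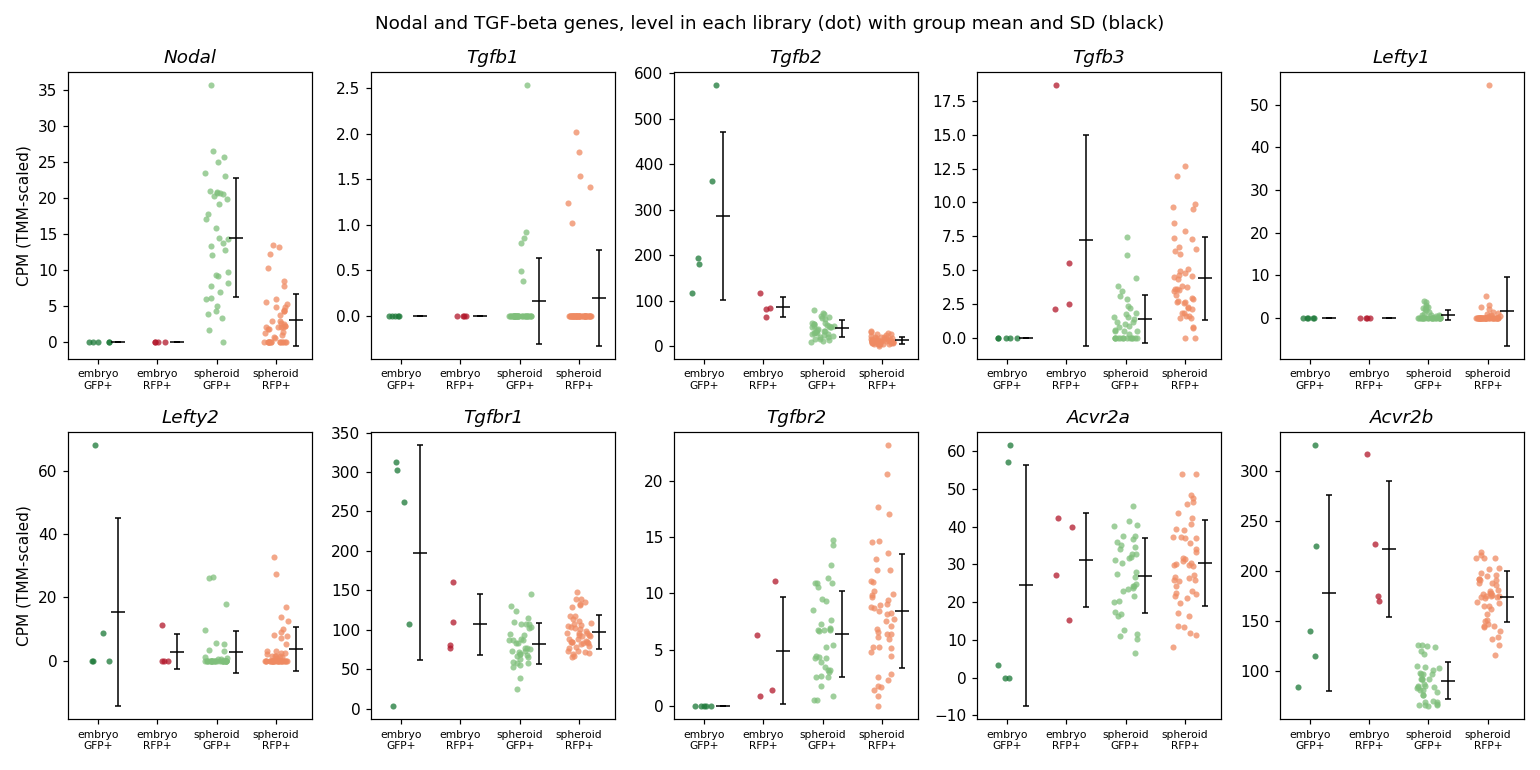
Level of each of the 10 genes (CPM, linear axis, own scale per gene) in every library, by source and population, with the group mean and SD in black. Nodal sits at 0 in all 9 embryo libraries and highest in spheroid GFP+ wells (mean 14.4 CPM), while Tgfb2 is highest in embryo GFP+ libraries (117 to 574 CPM).

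Tgfb2, the TGF-beta ligand with a known role in the heart's outflow tract and valves, was the member higher in GFP+ cells in both sources. It lies on the minus strand of chromosome 1 (186622792 to 186705989), with 5791 bases of exon, of which 124 overlap Gm29491 on the opposite strand. In vivo, the GFP+ libraries held 117, 180, 574, 194 and 363 CPM. The RFP+ libraries held 63.9, 83.8, 81.5 and 116 CPM, so that the groups did not overlap, although the highest RFP+ and lowest GFP+ libraries nearly met. The means were 286 ± 185 CPM (SD, n = 5) and 86.3 ± 21.8 CPM (SD, n = 4), with a log2 fold change of -1.81 (SE 0.53, edgeR adjusted p = 0.0564). The cardiomyocyte markers, 27816 CPM in GFP+ and 1310 CPM in RFP+ cells on average, stood on the same side. The median log2 fold change of all genes tested was 0.09 in this comparison. Of the 10 members 4 passed the filter on low counts in vivo, and Tgfb2 was the 1 called. Of all 8503 genes tested 10.1% were called, of which the GFP+ side made up 3.88% and the RFP+ side 6.21% of the genes tested. An exact permutation test on log2 CPM gave a two-sided p = 0.0159. The call was lost at an adjusted p under 0.05, without GFP+ library C12 (0.111) and without any 1 of the 4 RFP+ libraries (0.105 to 0.170).

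In vitro, Tgfb2 was counted in every well, from 9.28 to 79.5 CPM in GFP+ (median 37.7) and from 0.812 to 33.3 CPM in RFP+ wells (median 10.6). The upper part of the GFP+ range, 21 of 37 wells, lay above all RFP+ wells. Means were 39 ± 18.5 (SD, n = 37) and 13.1 ± 7.77 CPM (SD, n = 46), a log2 fold change of -1.55 (SE 0.17, edgeR adjusted p = 3.9e-14). GFP+ wells were higher in 8 of 8 plate rows. The column means were 30.9 to 44.7 CPM in GFP+ and 10.9 to 16.6 CPM in RFP+ columns.

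Tgfb3, which acts with Tgfb2 in palate and valve development, had the opposite distribution at low counts. The gene lies on the minus strand of chromosome 12 (86056745 to 86079041), and 420 bases of its exons overlap other genes on the opposite strand. In vivo, no reads were counted in the 5 GFP+ libraries, and the 4 RFP+ libraries had 26, 8, 3 and 3 counts (18.7, 5.54, 2.55 and 2.11 CPM). The RFP+ mean, 7.22 ± 7.79 CPM (SD, n = 4), exceeded the level of 3 counts in each GFP+ library and was at least 2.85-fold higher (counting error only). Without library F12, which held 65.0% of the counts, the RFP+ mean was 3.40 CPM. F12 was also the library with globin and the most Pecam1 reads. The sum of the endothelial markers was however higher in H11 (264 CPM), which had 3 Tgfb3 counts, than in F12 (147 CPM). The exact permutation p of 0.00794 (two-sided) is the smallest that 126 splits can give. Tgfb3 did not pass the filter on low counts in vivo. Without the filter it had an edgeR adjusted p of 0.0567, where 13.2% of 15111 genes were called. Groups that did not overlap were common: of 15111 genes with a count, 13.8% had separate groups, 11.8% with RFP+ and 2.04% with GFP+ cells higher. Of the members, Tgfb2, Tgfb3 and Tgfbr2 were separate among 7 with a count. Over the whole table, 605 genes had no count in the 5 GFP+ libraries and counts in each of the 4 RFP+ libraries, while the reverse held for 3 genes.

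In spheroids, Tgfb3 was counted in 44 of 46 RFP+ wells (median 3.59, highest 12.7 CPM) and in 24 of 37 GFP+ wells (median 0.799, highest 7.44 CPM). Means were 4.41 ± 3.05 CPM (SD, n = 46) in RFP+ and 1.39 ± 1.79 CPM (SD, n = 37) in GFP+ wells. RFP+ wells were higher in 8 of 8 rows. The permutation test gave p = 1e-05, the smallest that 100000 resamples can give, and the edgeR fit without the filter gave a log2 fold change of 1.70 (adjusted p = 1.2e-05). That fit called 59.8% of 21826 genes.

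Tgfb1, a ligand known from endothelium and immune cells, was near absent in all groups. It had no reads in vivo and at most 4 in a well in vitro, with counts in 6 of 37 GFP+ and 6 of 46 RFP+ wells. The means, 0.162 in GFP+ and 0.196 CPM in RFP+ wells (SD 0.473 and 0.53, n = 37 and 46), lay under the level of 3 counts, and the permutation p was 0.817.

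**Figure D2:**
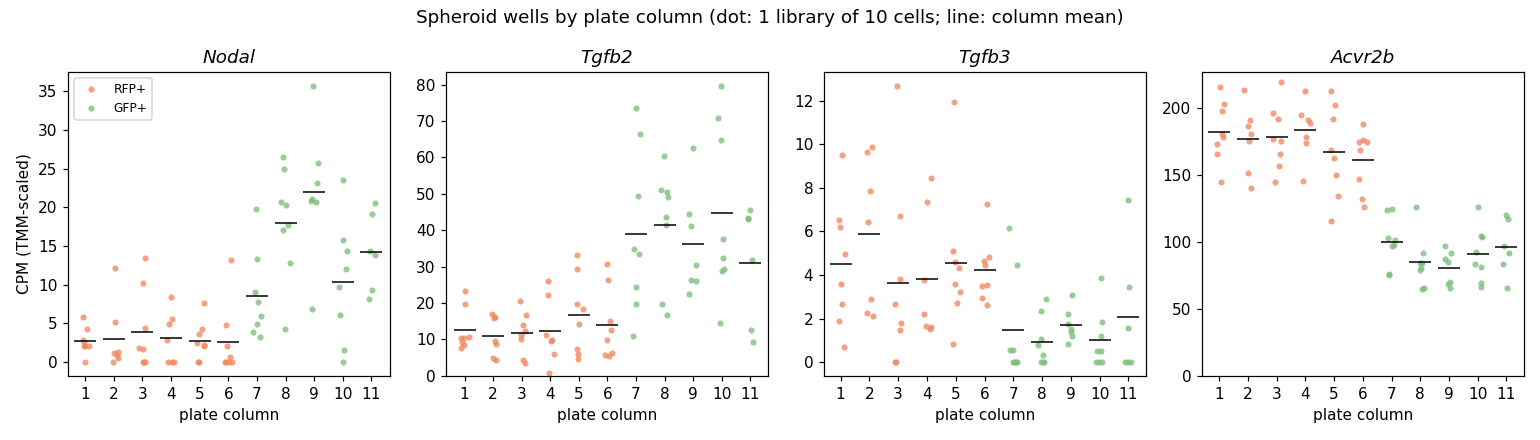
Nodal, Tgfb2, Tgfb3 and Acvr2b in CPM (linear axis) in each spheroid well by plate column, with column means as black lines. The RFP+ wells fill columns 1 to 6 and the GFP+ wells columns 7 to 11, and for each of the 4 genes the column means of the populations do not overlap (for Tgfb3, 0.926 to 2.07 CPM in GFP+ and 3.65 to 5.87 CPM in RFP+ columns).

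Lefty1 and Lefty2, the feedback inhibitors of Nodal, lie next to each other on the plus strand of chromosome 1 (Lefty1 180935022 to 180938400, Lefty2 180893108 to 180899103). Their coding sequences, each of 1104 bases, are identical at 91.8% of positions, and 17.9% of all stretches of 50 bases in Lefty1 transcripts also occur in Lefty2. Reads from such shared stretches cannot be assigned to 1 of the genes by sequence, and how they were counted is not given in the sources used here. The stretch of 60 coding bases with the most differences (positions 34 to 93, chr1:180935143-180935202 in Lefty1 and chr1:180893217-180893276 in Lefty2, plus strand of mm10) shows where reads can be told apart, whereas the longest identical coding run has 140 bases (positions 493 to 632 of both, spanning an intron). Capitals mark the 18 differing bases.
Lefty1: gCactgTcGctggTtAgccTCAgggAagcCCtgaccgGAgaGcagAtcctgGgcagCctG
Lefty2: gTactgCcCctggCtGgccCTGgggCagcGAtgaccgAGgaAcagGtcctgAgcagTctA
Lefty1 had no reads in vivo. In vitro it was counted in 15 of 37 GFP+ wells (highest 3.94 CPM) and 11 of 46 RFP+ wells. One RFP+ well, D6, held 62 counts (54.6 CPM) or 68.9% of the RFP+ total, and the other RFP+ wells reached 5.18 CPM at most. The RFP+ mean was 1.58 ± 8.05 CPM (SD, n = 46) and fell to 0.402 without D6, below the GFP+ mean of 0.751 ± 1.20 CPM (SD, n = 37). The permutation p was 0.539.

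Lefty2 was uneven within every group. In vivo, well B12 of the GFP+ libraries had 160 counts (68.2 CPM), A12 had 8 (8.63 CPM) and the other 3 had none. Among RFP+ libraries, only H11 had reads (16 counts, 11.3 CPM). In vitro, it was counted in 12 of 37 GFP+ wells (highest 26.6 CPM) and 22 of 46 RFP+ wells (highest 32.8 CPM), with means of 2.71 ± 6.69 and 3.70 ± 7.06 CPM (SD) and a permutation p of 0.217. The in vivo exact permutation p was 0.722. Both inhibitors were counted together in 5 GFP+ and 5 RFP+ wells, and 15 GFP+ and 18 RFP+ wells had neither. Well D6, highest for Lefty1, also had 31 counts (27.3 CPM) of Lefty2.

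The type I receptor of the TGF-beta ligands, Tgfbr1, was expressed in all groups. In vivo, the GFP+ libraries held 3.24, 107, 312, 263 and 303 CPM and the RFP+ libraries 161, 109, 76.4 and 81.0 CPM. Library A12, with 3 counts, stood below all others, and 3 GFP+ libraries stood above all RFP+ libraries. The log2 fold change of -0.96 (SE 0.83, edgeR adjusted p = 0.737) was within the spread. In vitro, the range was 24.7 to 146 CPM in GFP+ (median 77.2) and 65.0 to 148 CPM in RFP+ wells (median 93.5). The means of 82.4 ± 25.5 and 97.2 ± 21.4 CPM (SD) gave a log2 fold change of 0.25 (SE 0.08, edgeR adjusted p = 0.00551), small beside the well-to-well spread, and RFP+ was higher in 7 of 8 rows.

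Tgfbr2, which binds the TGF-beta ligands, was low throughout. In vivo it had no reads in GFP+ libraries, and 2, 16, 1 and 9 counts in RFP+ libraries (1.44, 11.1, 0.849 and 6.34 CPM). The RFP+ mean of 4.92 ± 4.78 CPM (SD, n = 4) was at least 1.94-fold higher than the level of 3 counts in each GFP+ library. Without G11, which held 57.1% of the counts, it was 2.87 CPM. The sums of the endothelial markers (149 CPM in RFP+ and 35.96 CPM in GFP+ cells on average) and endoderm markers (269 and 4.45 CPM) were also higher in RFP+ cells, though not Tek and Apoa1. The part of such cells in this difference was not tested. The exact permutation p was 0.00794, again the smallest possible, and without the filter on low counts the edgeR adjusted p was 0.0674. In vitro, all 37 GFP+ wells (0.513 to 14.7 CPM, median 6.64) and 45 of 46 RFP+ wells (0 to 23.1 CPM, median 8.23) had reads. The log2 fold change of 0.45 (SE 0.21) had an edgeR adjusted p of 0.0495, while the permutation test gave p = 0.0935 and RFP+ was higher in 5 of 8 rows.

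The Activin and Nodal receptor Acvr2b differed most evenly between the spheroid populations. In vitro, it ranged from 64.9 to 126 CPM in GFP+ wells (median 87.3) and from 116 to 219 CPM in RFP+ wells (median 175). Of 46 RFP+ wells, 44 lay above the highest GFP+ well, the least overlap of the 10 genes. The means were 90.3 ± 18.7 (SD, n = 37) and 174 ± 25.2 CPM (SD, n = 46), with a log2 fold change of 0.96 (SE 0.06, edgeR adjusted p = 1.1e-28). RFP+ was higher in 8 of 8 rows, and the column means were 161 to 183 CPM in RFP+ and 80.6 to 99.9 CPM in GFP+ columns. In vivo, the GFP+ libraries held 84.2, 140, 326, 225 and 114 CPM and the RFP+ libraries 175, 227, 170 and 317 CPM. These overlapped, and the log2 fold change of 0.26 (SE 0.47, edgeR adjusted p = 0.921) was within the spread.

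Acvr2a, the paralogue with the same ligands, passed no test between GFP+ and RFP+ cells. Of its exons, 446 bases overlap Orc4 on the opposite strand, and whether counting used strand is not given in the sources used here. The in vivo GFP+ libraries held 0, 3.41, 57.1, 61.6 and 0 CPM and the RFP+ libraries 27.3, 15.2, 39.9 and 42.2 CPM, so GFP+ libraries lay on both sides of the RFP+ range. In vitro, the medians were 27.6 (GFP+, 6.64 to 45.4) and 29.96 CPM (RFP+, 8.02 to 54.0). The log2 fold changes were 0.28 in vivo (SE 1.64, edgeR adjusted p = 0.986) and 0.18 in vitro (SE 0.12, edgeR adjusted p = 0.173).

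Of the 6 members that passed the filter in vitro, 5 were called, 3 higher in RFP+ cells and 2 higher in GFP+ cells, against 38.4% and 39.6% of all genes tested. The median log2 fold change of these 6 was 0.22, and that of all genes -0.01. No member had separate groups in vitro, where 1.42% of 21826 genes did. Per kilobase of exon, Acvr2b was the most abundant member in 3 groups, with 44.4 ± 6.42 CPM per kb (SD) in vitro RFP+ cells, and Tgfb2 in vivo GFP+ cells, with 49.3 ± 32, a level not separate from the 45.3 ± 24.9 of Acvr2b there. In vitro GFP+ cells, Nodal came after Acvr2b and Tgfbr1 with 6.90 ± 3.96 CPM per kb, next to Tgfb2 with 6.73 ± 3.20, a difference within the spread.

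**Figure D3:**
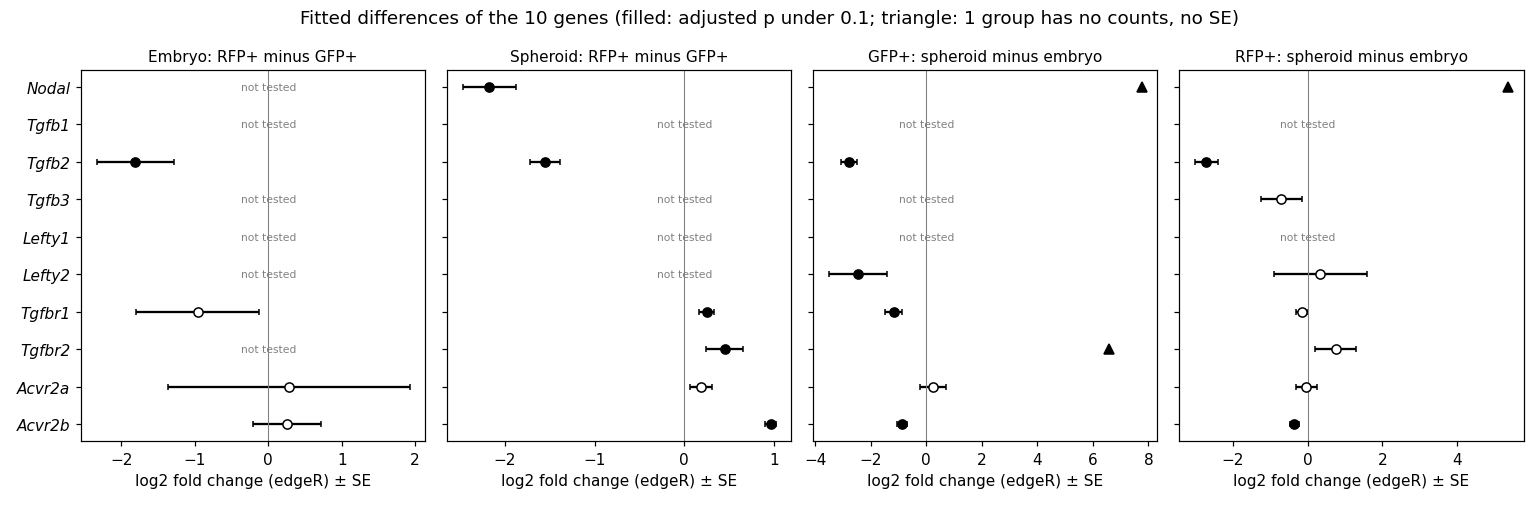
edgeR log2 fold changes with SE for the 10 genes in the 4 comparisons, filled where the adjusted p was under 0.1, with triangles where 1 group has no counts and no SE can be given. Tgfb2 lies on the GFP+ side in both sources (-1.81 and -1.55) and is lower in spheroid than embryo cells (-2.79 and -2.72).

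Compared with embryo cells of the same label, spheroid cells had less Tgfb2 and more Nodal. For Tgfb2, the log2 fold change in vitro versus in vivo was -2.79 (SE 0.28, edgeR adjusted p = 4.7e-12) in GFP+ and -2.72 (SE 0.30, edgeR adjusted p = 5.3e-11) in RFP+ cells. The 37 GFP+ wells lay below the 5 in vivo GFP+ libraries and the 46 RFP+ wells below the 4 in vivo RFP+ libraries. Among all genes, 9.04% of 21086 were separate in the GFP+ comparison and 2.51% of 20426 in the RFP+ comparison. Across the 4 groups, the order of Tgfb2 means was in vivo GFP+, in vivo RFP+, in vitro GFP+ and in vitro RFP+. Neighbours in that order had overlapping ranges, except for the 2 embryo groups. Nodal was at least 5.70-fold higher in vitro in GFP+ and at least 1.36-fold higher in RFP+ cells than 3 counts per embryo library would give (edgeR adjusted p = 9.5e-08 and 0.0145). It had no embryo counts and passed the filter through the spheroid wells alone, so these adjusted p-values are not independent support for the difference. The bounds cover counting error only, and embryo GFP+ libraries detected fewer genes (6189 to 8302) than spheroid GFP+ wells (12837 to 14671). Exact permutation p-values for Nodal were 7.05e-06 and 0.0275. Tgfb2 had 1.18e-06 and 4.34e-06, the smallest that the 850668 and 230300 splits can give.

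In GFP+ cells, 6 of the 7 members that passed the filter were called between sources, against 68.4% of 11953 genes (48.1% higher in vitro and 20.2% higher in vivo). Nodal and Tgfbr2, with no count in the embryo GFP+ libraries, passed the filter through the spheroid wells alone, so their calls were close to given. The median log2 fold change of the 7 members was -0.89, also with Nodal and Tgfbr2 at their bounds, where the median of all genes was 0.65. Acvr2b was lower in vitro (-0.89, SE 0.18, edgeR adjusted p = 4.2e-05), as was Tgfbr1 (-1.18, SE 0.30, edgeR adjusted p = 0.000717), for which library A12 lay below the spheroid range and the exact permutation p was 0.342. Without A12, the permutation p of Tgfbr1 was 8.89e-05. Tgfbr2 had reads in all 37 spheroid wells and none in the 5 embryo libraries, at least 2.51-fold higher in vitro by counting error alone (edgeR adjusted p = 5.3e-07). The fit also called Lefty2 lower in vitro (-2.46, SE 1.05, edgeR adjusted p = 0.0376), a call that rested on B12. Without B12 the log2 fold change was 0.44 (edgeR adjusted p = 0.822). Acvr2a had a log2 fold change of 0.24 (SE 0.48, edgeR adjusted p = 0.684), whereas mean log2 CPM was 1.82 higher in vitro (exact permutation p = 0.00551, and 0.000849 to 0.0438 without 1 embryo library), 2 embryo libraries being at 0. The limma voom fit with group quality weights called only Tgfb2 of the members in both comparisons between sources.

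In RFP+ cells, 3 of 8 members that passed the filter were called, against 42.6% of 11147 genes (22.5% higher in vitro and 20.1% higher in vivo), namely Nodal, Tgfb2 and Acvr2b. Nodal had no count in the embryo RFP+ libraries and passed through the spheroid wells alone. The log2 fold changes of the 8 members had a median of -0.09, and those of all genes 0.04. Acvr2b was lower in vitro by a log2 fold change of -0.36 (SE 0.12, edgeR adjusted p = 0.0134), and the call was lost without library H11 (-0.13, edgeR adjusted p = 0.465). Tgfb3, Lefty2, Tgfbr1, Tgfbr2 and Acvr2a had log2 fold changes between -0.71 and 0.76 with edgeR adjusted p of 0.295 to 0.944. Without library G11, Tgfbr2 was called (1.51, edgeR adjusted p = 0.0814).

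Whether the RFP+ versus GFP+ change differed between embryo and spheroid was tested from the 2 fits, as their log2 fold changes subtracted over the combined SE with 7 degrees of freedom. This called 3.38% of 8081 genes and none of the 4 members tested. The differences, in vitro minus in vivo, were 0.26 for Tgfb2 (SE 0.56, adjusted p = 0.963), 1.21 for Tgfbr1 (SE 0.84, adjusted p = 0.757), 0.71 for Acvr2b (SE 0.47, adjusted p = 0.746) and -0.10 for Acvr2a (SE 1.65, adjusted p = 0.996), from edgeR fits. None of the 4 had an unadjusted p under 0.05. A p that misses the threshold does not show that the changes were alike. An interaction term in 1 edgeR fit over all libraries, which assumes the same spread in all groups, called 54.6% of 12673 genes. Its adjusted p was 2.7e-05 for Tgfbr2 and 0.00262 for Tgfb3, both with no count in embryo GFP+ cells, 0.0104 for Tgfbr1 and 0.0177 for Acvr2b. It was 0.223 for Lefty2, 0.831 for Acvr2a and 0.870 for Tgfb2.

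The pathway's other genes were taken from a list of 59 present in the table. In vitro, 36 passed the filter and 32 were called. Of these, 22 had more reads in GFP+ and 10 in RFP+ cells, with a median log2 fold change of -0.51 over the 36. Of all genes tested in vitro, 78.0% were called, 39.6% on the GFP+ and 38.4% on the RFP+ side, with a median of -0.01. The intracellular group stood mostly on the GFP+ side, with 13 of 14 called and 10 of these higher in GFP+ cells. Skil, a corepressor of Smad proteins, had 146 ± 31.9 CPM (SD, n = 37) in GFP+ wells against 44.2 ± 13.6 CPM (SD, n = 46) in RFP+ wells, a log2 fold change of -1.69 (SE 0.08, edgeR adjusted p = 4.1e-34). The inhibitory Smad7 had -1.31 (SE 0.21, edgeR adjusted p = 3.2e-08) and the corepressor Ski -0.86 (SE 0.09, edgeR adjusted p = 1.5e-14). Higher in RFP+ cells were Foxh1, Smad3 and Tgif2, by log2 fold changes of 0.32 to 0.40.

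Of the antagonists and latency genes 6 of 7 were called in vitro, against the 78.0% of all genes. Fst, which binds Activins, had 28.5 ± 17.2 CPM (SD, n = 37) in GFP+ wells against 181 ± 40.5 CPM (SD, n = 46) in RFP+ wells, a log2 fold change of 2.68 (SE 0.14, edgeR adjusted p = 3.4e-32). Cer1, a secreted inhibitor of Nodal and Bmp, was counted in 14 of 37 GFP+ wells and 46 of 46 RFP+ wells (2.18, SE 0.42, edgeR adjusted p = 2.1e-06). The remaining 4, the pseudoreceptor Bambi among them (-0.79), were higher in GFP+ cells. Of these Ltbp4, which helps store latent TGF-beta in the matrix, had the largest change (-1.13, SE 0.21, edgeR adjusted p = 1.1e-06).

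Of the 4 receptors and co-receptors tested in vitro 3 were called, against the 78.0% of all genes. Eng, an endothelial co-receptor, had a log2 fold change of -2.07 (SE 0.30, edgeR adjusted p = 1.2e-09), and the co-receptor Tgfbr3 one of -0.35 (SE 0.10, edgeR adjusted p = 0.000983). The Nodal co-receptor Cfc1 was higher in RFP+ cells (0.86, SE 0.27, edgeR adjusted p = 0.00314). The 7 endothelial markers summed to 0.426 to 51.7 CPM in GFP+ and 0.445 to 140 CPM in RFP+ wells. Of the other ligands, Gdf11 alone passed the filter (0.19, SE 0.10, edgeR adjusted p = 0.0759).

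Among genes known to respond to the pathway, 9 of 10 were called in vitro, 6 of them higher in GFP+ cells, against 78.0% and 39.6% of all genes. Bhlhe40, a transcriptional repressor, had 117 ± 34.3 CPM (SD, n = 37) in GFP+ wells against 16.5 ± 12.9 CPM (SD, n = 46) in RFP+ wells, a log2 fold change of -2.81 (SE 0.20, edgeR adjusted p = 8.4e-24). The collagen gene Col1a1 had -2.48 (SE 0.24, edgeR adjusted p = 2.9e-16). Snai1, a factor of epithelial to mesenchymal transition, was higher in RFP+ cells (2.11, SE 0.21, edgeR adjusted p = 4.8e-16), as was Foxa2 of the endoderm and node (means of 8.88 and 2.36 CPM). The mesendoderm genes Eomes and Mixl1 did not pass the filter and had higher means in RFP+ wells (9.30 against 3.61 and 8.11 against 1.98 CPM), with edgeR adjusted p of 0.00284 and 2.7e-05 without it.

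**Figure D4:**
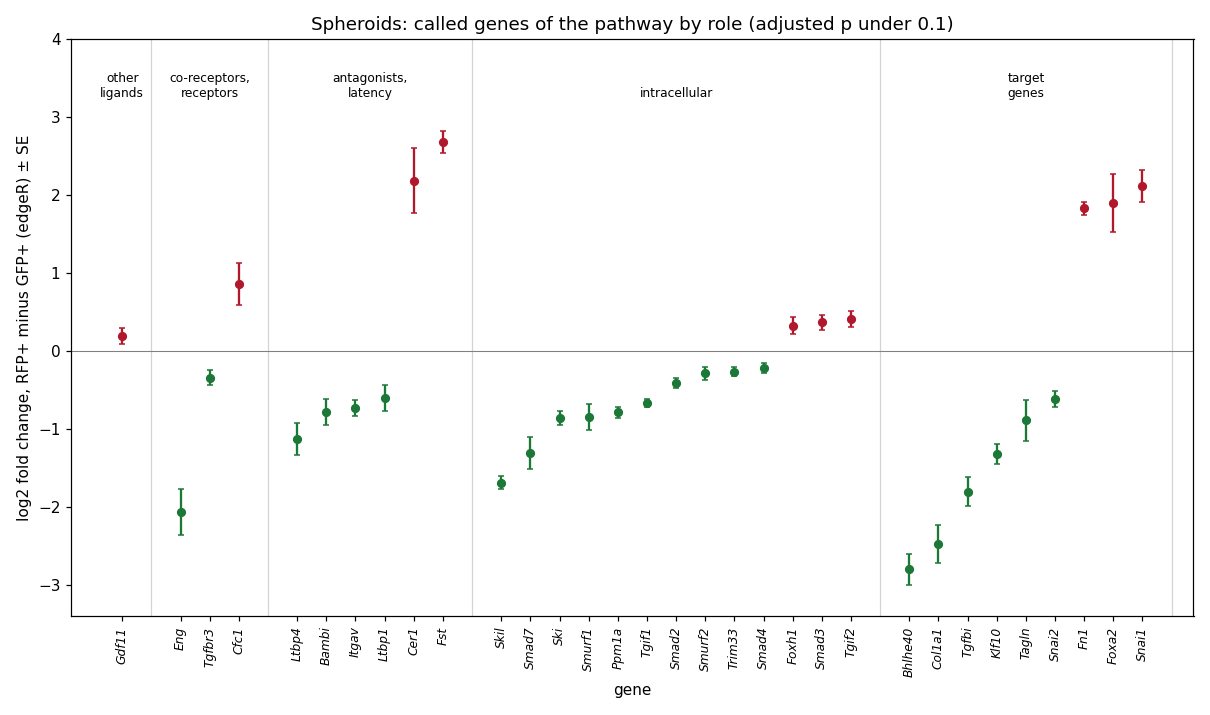
edgeR log2 fold changes (RFP+ minus GFP+, with SE) in spheroids of the 32 other pathway genes called at an adjusted p under 0.1, ordered within each role. Most intracellular genes lie below 0 (Skil -1.69), while the secreted inhibitors Fst (2.68) and Cer1 (2.18) lie above.

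In vivo, 31 of the 59 passed the filter and 3 were called, against the 10.1% of all genes. Foxh1, the Nodal-responsive partner of Smad2, was higher in GFP+ cells, at 149 ± 71.4 CPM (SD, n = 5) against 25.4 ± 20.0 CPM (SD, n = 4), a log2 fold change of -2.60 (SE 0.77, edgeR adjusted p = 0.0583). Tagln, a smooth muscle and early heart gene, was at 438 ± 112 CPM in GFP+ and 146 ± 42.4 CPM in RFP+ libraries (-1.63, SE 0.33, edgeR adjusted p = 0.00910). Pcsk6, a protease that processes Nodal, was higher in RFP+ cells, at 14.9 ± 5.39 CPM (SD, n = 4) against 1 library with 1.28 CPM in GFP+ cells (5.17, SE 1.31, edgeR adjusted p = 0.0248). It passed the filter through the RFP+ libraries alone, so this adjusted p is not independent support for the difference. For Fst, the in vivo value was 2.60 (log2 fold change, SE 1.74, edgeR adjusted p = 0.591).

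Across spheroid wells, with the population means removed and near-identical wells averaged (76 libraries), the members varied largely apart from each other. The pairwise r of the 6 members above the filter ran from -0.15 to 0.20. The gene most like Nodal among 10296 was Cdkn1b (r = 0.49), followed by Dcp1b (0.42) and Wfdc2 (0.41). For Tgfb2 these were Zfp358 (0.47), Impad1 (0.42) and Cd24a (0.42), for Tgfbr1 Nup155 (0.46), Sh3bgrl (0.44) and Trmt1l (0.44), and for Tgfbr2 Hirip3 (0.40), Afg3l1 (0.40) and Acta1 (0.38). For Acvr2a they were Mettl9 (0.48), Matr3 (0.48) and Ube2v2 (0.46), and for Acvr2b Tbl3 (0.42) and Ppp1r14b (0.41). These values are the highest of many in sparse counts and are given as a description.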

How the data were processed

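Per the labels, RNA of 10 sorted cells per well was reverse transcribed, amplified for 19 cycles, tagmented with Tn5 and sequenced, without molecular identifiers. The authors trimmed reads with Trimmomatic 0.36, mapped them to mm10 with HISAT2 2.0.4 and counted them with featureCounts 1.5.2 (Subread). The deposited values are raw counts per gene symbol (93 libraries), without normalization. Whether strand was used is not given in the sources used here.

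Groups were taken from the sample labels. Counts were fitted in edgeR 4.0.16 (R 4.3.3, limma 3.58.1) with TMM, filterByExpr (minimum count 10, total 15, proportion 0.7) and the quasi-likelihood F-test, for each pair of groups alone, with Benjamini-Hochberg adjustment over all genes tested. Libraries under 100000 reads (1) were left out. A standard error is the size of the log2 fold change over the root of F. Single members were also tested on log2 CPM (prior count 2) by two-sided permutation tests, 37 in all and unadjusted, exact where a group had fewer than 10 libraries and with 100000 resamples otherwise. Of the 7 in vitro RFP+ well pairs in plate columns 3 and 4, counts differed by more than sampling noise (chi-square per degree of freedom 1.37 to 2.39, against 4.42 to 6.04 for columns 3 and 5), so wells were counted separately. Amplified reads vary beyond sampling noise also within 1 sample, so this does not show that the wells are distinct. Gene models are GENCODE M21 (GRCm38, the assembly of mm10). Intervals and limits cover counting error only.

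All 10 members are named. Of the other pathway genes, up to 3 called genes per role with the largest log2 fold change were named for each GFP+ versus RFP+ comparison, and for each member above the filter the 3 genes with the highest r, of which 1 is not reported here. Foxh1, Smad3 and Tgif2, Foxa2, Eomes, Mixl1 and Bambi in vitro and Fst in vivo were named after their values were seen. Members and lists were chosen with earlier results of these data known. On simulated counts with no change the fits made 0 calls. The simulated libraries were independent and had the same dispersion in both groups, whereas the embryo and spheroid groups differed in spread. The 0 calls therefore do not give the error rate of the fits on the measured counts. With a log2 change of 2 the in vivo fit recovered 25 of 165 changed genes and the in vitro fit 200 of 200, and the test of the difference between sources 0 of 161. Alternatives covered DESeq2 1.42.0, limma voom, other size factors, no filter, a stricter threshold, summed wells and leaving out each in vivo library.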

Additional observations from a re-analysis of the deposited data

Results flagged for a closer look

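Lefty2 in the in vivo GFP+ libraries was flagged because 1 library, B12, stood far from the other 4, at 68.2 CPM against 0 to 8.63 CPM. In the in vivo RFP+ libraries, Lefty2 was flagged because H11 had 11.3 CPM and the other 3 had none. Of 12 groups of in vivo libraries with a member counted, 2 were flagged in this way. Chance flags about 1 in 20 for normally distributed values, a rate that does not hold for counts with many zeros. Where 1 of 4 libraries alone had reads, as with H11, the flag was certain. The test of the difference between sources covered 4 of the 10 members and called none of them.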

How the results depend on the processing

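Of 311 values of member log2 fold changes under other settings, 281 kept their direction and call, 15 lost and 1 gained a call, and 14 changed sign. The in vivo count of 858 called genes was 2000 without the filter, 1936 by DESeq2, 2271 by voom and 1765 with adjusted deviances (added after seeing the data), and 613 to 1044 without 1 library. Members called in vivo were 0 at the stricter threshold, 3 without the filter and by DESeq2 (Tgfb2, Tgfb3 and Tgfbr2), and 0 to 1 without 1 library. In vitro, 13056 genes were called without the filter, against 7789. Between sources, voom called 2413 genes (GFP+) and 2125 (RFP+), with 1 member each. Without 1 library these were 8559 to 8699 genes and 5 to 6 members (GFP+), and 4076 to 4426 genes and 2 to 4 members (RFP+). The interaction in 1 fit called 6925 genes against 273. Without 1 library, log2 fold changes that changed sign ranged for Acvr2a from -0.046 to 0.91 in vivo, from -0.17 to 0.96 between GFP+ sources and from -0.26 to 0.16 between RFP+ sources (0.020 with total counts), for Lefty2 from -2.81 to 0.44 between GFP+ sources and from -0.075 to 5.61 between RFP+ sources, and between RFP+ sources for Tgfb3 from -1.001 to 0.37 and for Tgfbr1 from -0.28 to 0.12. The cause was not tested. DESeq2 size factors moved the median log2 fold change of all genes from 0.09 to -0.04 in vivo and from 0.65 to 0.47 between GFP+ sources, without changing a member's call. Summing the paired wells changed no member's call. With plate row as a covariate in vitro, 7804 genes and the same 5 members were called. No paired analysis was possible because the numbers in the labels are plate positions and not replicates shared between groups. The group means of Tgfb1 and Lefty1 lay under the level of 3 counts per library, although single wells held more (up to 62 counts of Lefty1). Neither gene passed the filter. Without it, Lefty1 was called between GFP+ sources, where the embryo libraries had no reads. Other differences of these genes may have gone undetected at this depth.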
